A study of Mus musculus with 8 samples.

Results

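Bcl-2 family apoptosis regulators were followed in hearts of wild-type (WT) mice and of TAZG197V mice, which carry a patient-derived missense mutation in Tafazzin, the mitochondrial acyltransferase that remodels cardiolipin. The set comprised 10 named genes: the survival genes Bcl2, Bcl2l1 and Mcl1, the pore formers Bax and Bak1, and the BH3-only genes Bid, Bad, Bbc3, Pmaip1 and Bcl2l11. They were found by symbol, and all 10 were present among the 55471 genes counted in each library. RNA came from a small piece of untreated heart of 4 WT and 4 TAZG197V mice at an age of 14 weeks, an age that a legend gives and the sample labels do not. TAZG197V mice were made by CRISPR/Cas9 editing of C57BL/6N zygotes, and the founders were crossed to C57BL6/J, so the background is mixed between these substrains. TAZG197V mice are described as hemizygous males in the study's results, whereas its methods and the labels speak of homozygous offspring, and no label gives the sex of a sample. The study's results add that mutant males were sterile, that homozygous litters could not be bred from them and that only hemizygous males were studied. The labels do not say whether the WT mice were littermates or which part of the heart was taken.

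Bcl-2 proteins decide whether the mitochondrial outer membrane stays closed. Bax and Bak1 form pores in it and release cytochrome c, the survival proteins hold them in check, and the BH3-only proteins respond to damage or stress by binding the survival proteins or by activating Bax and Bak1 directly. Cardiolipin, the lipid that Tafazzin remodels, is a known docking site for cleaved Bid on mitochondria. In the heart, a tissue that hardly renews its muscle cells, Mcl1 and Bcl2l1 are known to be needed for cardiomyocyte survival. Many of these proteins are controlled by cleavage, phosphorylation or turnover, so a transcript level is only a part of their regulation.

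Total counts ranged from 23055689 to 36301031 per library, and mitochondrially encoded genes took 21.6 to 24.6% of them. The edited gene Taz was transcribed in all libraries, with a mean of 60.8 ± 2.39 CPM (counts scaled to library size) in WT hearts against 47.2 ± 2.64 CPM in TAZG197V hearts (SD, n = 4 each, log2 fold change -0.37, SE 0.0551, adjusted p = 0.00124), so the mutation does not remove the transcript. Defining markers of cardiomyocytes were present at a summed level of 59325 to 68215 CPM in WT and 50623 to 54759 in TAZG197V, without overlap, and 4 of the 8 were called lower. Library WT 4 stood apart in blood cell markers, libraries WT 4 and TAZG197V 4 in brain markers and library WT 2 in single adipocyte markers. The summed levels of blood cell and brain markers are given beside the genes they move with. By the lane marks in the run names, which no sample label repeats, libraries 1 and 2 of both genotypes came from lane 7 and libraries 3 and 4 from lane 8.

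Of the 10 genes, 6 were higher in TAZG197V hearts, 1 was lower and 3 did not pass the test. Bbc3, Bax, Bcl2l1, Bcl2, Bad and Bak1 rose, Bcl2l11 fell, and Mcl1, Bid and Pmaip1 were not called. A gene was called when its adjusted p from edgeR's quasi-likelihood test (Benjamini-Hochberg, over 15084 genes tested) was under 0.05, its log2 fold change exceeded 0.20 in size and its mean scaled count was at least 50. Of all genes tested, 18.5% were called higher and 15.1% lower (33.5% in either direction), so calls were common in this comparison. The median log2 fold change of the 10 genes was 0.49, against -0.01 over all genes tested, and 9 of 10 had a positive value. The levels of 4 genes (Bbc3, Bax, Bcl2l1 and Bcl2l11) did not overlap between genotypes; over all genes tested, 33.2% did not overlap. In bulk tissue, more cells of a type that uses a gene and more RNA per cell cannot be told apart.

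**Figure D1:**
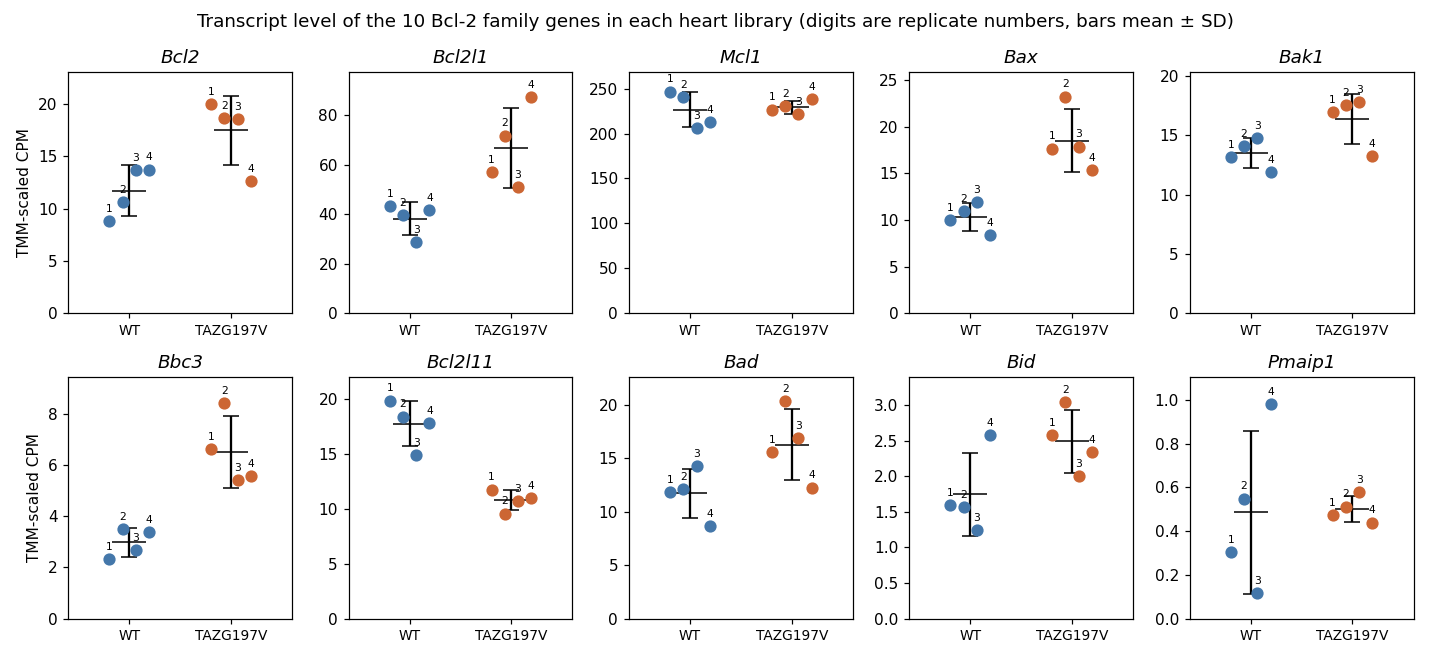
Level of each of the 10 genes in every library (TMM-scaled CPM, vertical axis from 0), with WT in blue and TAZG197V in orange, digits for replicate numbers and bars for mean ± SD over 4 libraries. Bax, Bcl2l1 and Bbc3 were higher in every TAZG197V library than in any WT library, Bcl2l11 was lower in every TAZG197V library, and the levels of the other 6 genes overlapped.

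Mcl1 (ENSMUSG00000038612, chr3:95658788-95663176, GRCm38, plus strand), a short-lived survival protein, had by far the highest transcript level of the set. It reached 247, 240, 206 and 213 CPM in WT 1 to 4 and 227, 231, 222 and 238 CPM in TAZG197V 1 to 4. The TAZG197V libraries lay within the range of the WT libraries. Its log2 fold change was 0.04 (SE 0.0653, 95% interval -0.11 to 0.19, adjusted p = 0.651), so a change larger than the ends of this interval was not seen. The sign was not stable and turned to -0.02 without WT 4 and to -0.03 without TAZG197V 4.

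Bcl2l1 (ENSMUSG00000007659, chr2:152780668-152831728, minus strand) encodes Bcl-xL, the main survival protein of many adult tissues, and a short splice form, Bcl-xS, that promotes death. The counts per gene do not separate the splice forms. Bcl2l1 was at 43.3, 39.6, 28.6 and 41.6 CPM in WT 1 to 4 and at 57.2, 71.8, 51.0 and 87.4 CPM in TAZG197V 1 to 4. Every TAZG197V library was above every WT library, with the widest spread among the TAZG197V mice. The mean rose from 38.3 ± 6.60 to 66.8 ± 16.3 CPM (SD, n = 4 each, log2 fold change 0.82, SE 0.141, adjusted p = 0.00265). Within lane 7 alone the value was 0.64 (adjusted p = 0.00486), and within lane 8 alone, with 2 mice per genotype, it was 0.97 (adjusted p = 0.245).

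Bcl2 (ENSMUSG00000057329, chr1:106538178-106714274, minus strand), the survival gene that gave the family its name, was at 8.82, 10.6, 13.7 and 13.7 CPM in WT 1 to 4. It was at 20.0, 18.7, 18.6 and 12.7 CPM in TAZG197V 1 to 4. TAZG197V 1 to 3 were above all WT libraries, whereas TAZG197V 4 lay below WT 3 and WT 4. The log2 fold change was 0.52 (SE 0.150, adjusted p = 0.0268). This call was the least stable of the 6. It was lost when WT 1 (0.34, adjusted p = 0.0626), WT 2 (0.50, adjusted p = 0.069), TAZG197V 1 (0.43, adjusted p = 0.112), TAZG197V 2 (0.48, adjusted p = 0.111) or TAZG197V 3 (0.49, adjusted p = 0.0851) was left out, and without TAZG197V 4 the value was 0.78 (adjusted p = 0.00358). It was lost as well with the replicate number as a block (0.58, adjusted p = 0.0725). The value was 0.99 within lane 7 (adjusted p = 0.000858) and 0.19 within lane 8 (adjusted p = 0.722).

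Measured per length of annotated exon, Mcl1 remained the main survival transcript, and its share was lower in TAZG197V hearts. Mcl1 made up 87.3% ± 1.33 of the summed CPM per kilobase of the 3 survival genes in WT hearts and 80.4% ± 2.62 in TAZG197V hearts (SD, n = 4 each), with no overlap between genotypes. The share depends on the genes taken: with the survival gene Bcl2l2 (13.6 CPM per kilobase in WT and 13.4 in TAZG197V) added to the sum after the data were seen, it was 74.0% ± 0.550 in WT hearts and 69.3% ± 1.82 in TAZG197V hearts, again without overlap. The sum of the 3 reached 76.0 ± 6.63 CPM per kilobase in WT hearts and 83.6 ± 5.30 in TAZG197V hearts and overlapped. These shares and sums were not tested.

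Both pore formers rose, Bax more than Bak1. Bax (ENSMUSG00000003873, chr7:45461697-45466898, minus strand), which moves from the cytosol to mitochondria on activation, was at 9.97, 11.0, 11.9 and 8.42 CPM in WT 1 to 4. It was at 17.6, 23.2, 17.9 and 15.3 CPM in TAZG197V 1 to 4. All TAZG197V libraries were above all WT libraries. The mean rose from 10.3 ± 1.51 to 18.5 ± 3.34 CPM (SD, n = 4 each, log2 fold change 0.86, SE 0.111, adjusted p = 0.00066), and the value was 0.97 within lane 7 (adjusted p = 0.00211) and 0.70 within lane 8 (adjusted p = 0.245). Of the exon bases of Bax, 12.2% also lie in the exons of another annotated gene, Gm45808, and the strand setting of the counting is not given, so reads there cannot be assigned with certainty.

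Bak1 (ENSMUSG00000057789, chr17:27019810-27029009, minus strand), which sits in the outer membrane already in healthy cells, was at 13.2, 14.1, 14.8 and 11.9 CPM in WT 1 to 4. It was at 17.0, 17.6, 17.8 and 13.3 CPM in TAZG197V 1 to 4. TAZG197V 1 to 3 were above all WT libraries and TAZG197V 4 lay among them. The log2 fold change was 0.28 (SE 0.0675, adjusted p = 0.0119). With DESeq2 in place of edgeR the gene missed the threshold (0.27, adjusted p = 0.0541), as it did without surrogate variables (0.28, adjusted p = 0.0851) and with lane as a covariate in their place (0.28, adjusted p = 0.0948). The values within lanes were 0.34 (lane 7, adjusted p = 0.0358) and 0.22 (lane 8, adjusted p = 0.666). A share of 25.5% of its exon bases lies in exons of Ggnbp1, which makes its counts uncertain.

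Per kilobase of exon, Bax was 1.17 ± 0.0649 times Bak1 in WT and 1.73 ± 0.219 times Bak1 in TAZG197V (SD, n = 4 each), without overlap. The ratio of Bax to Mcl1 was 0.0995 ± 0.0184 in WT and 0.175 ± 0.0325 in TAZG197V, also without overlap. The ratio of Bax to Bcl2, often quoted as a measure of readiness to die, was 5.31 ± 1.32 in WT and 6.24 ± 1.05 in TAZG197V and overlapped. No test was made of these ratios.

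The BH3-only genes moved in different directions, with Bbc3 and Bad higher and Bcl2l11 lower. Bbc3 (ENSMUSG00000002083, chr7:16308393-16318205, plus strand) encodes Puma, a BH3-only protein that binds all survival members and is induced by p53 and by other stress factors. Bcl2l11 (ENSMUSG00000027381, chr2:128126038-128162547, plus strand) encodes Bim, which acts on growth factor withdrawal and is induced by FoxO factors.

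Bbc3 was at 2.33, 3.51, 2.68 and 3.39 CPM in WT 1 to 4 (69 to 128 counts). It was at 6.64, 8.44, 5.42 and 5.56 CPM in TAZG197V 1 to 4 (152 to 313 counts). Every TAZG197V library was above every WT library. This was the largest rise of the 10, from 2.98 ± 0.566 to 6.51 ± 1.40 CPM (SD, n = 4 each, fitted fold change 2.22, SE of its log2 0.209, adjusted p = 0.00343). On the log2 scale its 95% interval was 0.67 to 1.63, and the log2 fold change was 1.36 within lane 7 (adjusted p = 0.00337) and 0.85 within lane 8 (adjusted p = 0.205).

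Bcl2l11 was at 19.9, 18.4, 14.9 and 17.9 CPM in WT 1 to 4. It was at 11.8, 9.57, 10.7 and 11.0 CPM in TAZG197V 1 to 4. All TAZG197V libraries were below all WT libraries. The mean fell from 17.8 ± 2.07 to 10.8 ± 0.908 CPM (SD, n = 4 each, log2 fold change -0.71, SE 0.106, adjusted p = 0.00134). The value was -0.85 within lane 7 (adjusted p = 0.00201) and -0.60 within lane 8 (adjusted p = 0.173).

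The order of these BH3-only genes depended on scaling by length. In CPM, without division by length, Bcl2l11 was above Bbc3 in every library of both genotypes, and only per kilobase of annotated exon did their order differ between genotypes. Per kilobase of exon, Bbc3 stood at 0.640 ± 0.132 times Bcl2l11 in WT, with a range of 0.444 to 0.721. In TAZG197V it stood at 2.32 ± 0.683 times Bcl2l11, with a range of 1.91 to 3.33 (SD, n = 4 each, not tested). The pair joins the gene with the largest rise to the only gene called lower. As neither overlapped between genotypes, separate ranges of the ratio follow from the single-gene values and add no further result.

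Sequence upstream of the start was set beside these changes for the 3 genes with no overlap between genotypes whose upstream windows held a searched motif. The windows were the 250 bases before each RefSeq transcript start (GRCm38.p6), available for 9 of the 10 genes in 15 windows. Motifs were searched on both strands. They were the E-box CACGTG, the C/EBP-ATF composite element TGATGNAA, the forkhead motif TGTTTAC, whose other strand reads GTAAACA, and the p53 half-site. None of the matches printed overlapped another. Capitals mark the matches in the printed strand, 5′ to 3′, for Bax (chr7:45466899-45467148, minus strand), Bbc3 (chr7:16310011-16310260, plus strand) and Bcl2l11 (chr2:128125788-128126037, plus strand).
Bax: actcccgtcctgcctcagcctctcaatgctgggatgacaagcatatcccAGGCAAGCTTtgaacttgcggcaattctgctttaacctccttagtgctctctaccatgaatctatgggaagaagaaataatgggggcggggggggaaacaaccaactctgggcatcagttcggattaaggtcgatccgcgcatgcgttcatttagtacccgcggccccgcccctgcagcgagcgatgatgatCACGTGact
Bbc3: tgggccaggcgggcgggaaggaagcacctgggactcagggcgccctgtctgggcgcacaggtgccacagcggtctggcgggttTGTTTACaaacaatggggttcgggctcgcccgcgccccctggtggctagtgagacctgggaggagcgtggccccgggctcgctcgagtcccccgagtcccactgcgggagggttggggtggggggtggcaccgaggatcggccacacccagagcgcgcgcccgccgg
Bcl2l11: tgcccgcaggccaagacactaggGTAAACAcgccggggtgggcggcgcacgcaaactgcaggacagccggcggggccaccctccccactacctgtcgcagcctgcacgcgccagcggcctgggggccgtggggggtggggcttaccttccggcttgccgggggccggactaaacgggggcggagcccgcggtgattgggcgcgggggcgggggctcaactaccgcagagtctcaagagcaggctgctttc

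The Bax window held a p53 half-site that began 201 bases before the start and an E-box that began 9 bases before it. The Bbc3 window held a forkhead motif 167 bases before the start, and an overlapping window of another Bbc3 start (chr7:16310181-16310430) held an E-box 64 bases before it. The Bcl2l11 window, upstream of the gene that fell, held the forkhead motif on the other strand 227 bases before the start, so this motif was present beside a gene that rose and a gene that fell. None of the 4 motifs was in the windows of Bcl2, Bcl2l1, Mcl1, Bak1, Bid or Bad. Among 32817 windows of the same length, 6.02% held the E-box, 3.45% the composite element, 3.16% the forkhead motif and 7.12% the p53 half-site. A match describes letters and is not evidence of binding.

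Bad (ENSMUSG00000024959, chr19:6941861-6951899, plus strand), which Akt phosphorylation keeps inactive, was at 11.8, 12.1, 14.3 and 8.69 CPM in WT 1 to 4. It was at 15.6, 20.3, 16.9 and 12.3 CPM in TAZG197V 1 to 4. TAZG197V 1 to 3 were above all WT libraries, and TAZG197V 4 lay within the WT range. The log2 fold change was 0.48 (SE 0.103, adjusted p = 0.00724). The gene missed the threshold without surrogate variables (0.47, adjusted p = 0.078) and with lane as a covariate in their place (0.47, adjusted p = 0.0837). The values within lanes were 0.59 (lane 7, adjusted p = 0.0144) and 0.34 (lane 8, adjusted p = 0.638). A share of 20.5% of its exon bases is shared with Gpr137.

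Bid (ENSMUSG00000004446, chr6:120891930-120916853, minus strand), which links death receptors to mitochondria once caspase-8 cleaves it, had low counts of 47, 57, 32 and 58 in WT 1 to 4 and 71, 113, 62 and 64 in TAZG197V 1 to 4. Scaled, these were 1.59, 1.56, 1.24 and 2.58 CPM in WT libraries and 2.58, 3.05, 2.00 and 2.34 CPM in TAZG197V libraries. WT 4 lay within the range of the TAZG197V libraries, and the other WT libraries lay below it. The log2 fold change was 0.50 (SE 0.242, 95% interval -0.06 to 1.06, adjusted p = 0.136). Without WT 4 it was 0.77 (adjusted p = 0.021) and without TAZG197V 4 it was 0.75 (adjusted p = 0.0331), both of which would be called. It was 0.84 within lane 7 (adjusted p = 0.0254) and 0.18 within lane 8 (adjusted p = 0.859). Exons of Bcl2l13 cover 17.7% of the exon bases of Bid.

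Pmaip1 (ENSMUSG00000024521, on chromosome 18) encodes Noxa, which binds Mcl1 and drives its turnover. It was at 9, 20, 3 and 22 counts in WT 1 to 4 and at 13, 19, 18 and 12 counts in TAZG197V 1 to 4. With a mean scaled count of 14.5 it was under the minimum for a call. The log2 fold change was 0.10 (SE 0.498, 95% interval -1.04 to 1.24, adjusted p = 0.889). This interval leaves out neither a rise nor a fall of more than 2-fold, so a change could not be decided. The value was -0.28 without WT 3 and 0.56 without WT 4.

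**Figure D2:**
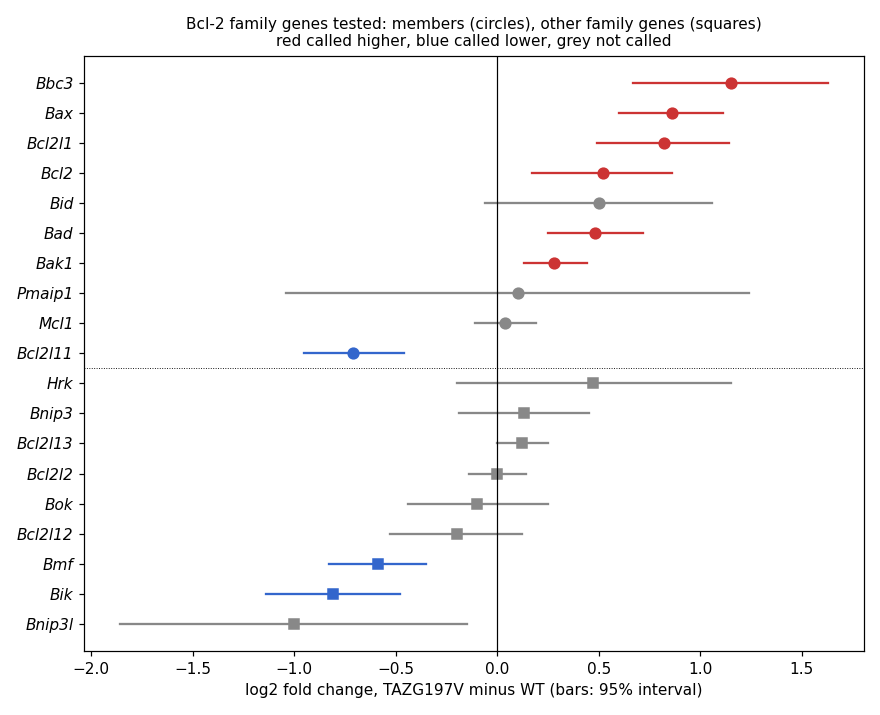
Log2 fold change of TAZG197V over WT (horizontal axis) with its 95% interval for the 10 genes (circles) and the 9 tested genes among 15 further family members (squares), red where called higher, blue where called lower and grey where not called. The intervals of Pmaip1 (-1.04 to 1.24) and Bnip3l (-1.86 to -0.15) are the widest, and that of Mcl1 (-0.11 to 0.19) is narrow around 0.

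In WT hearts the order of the 10 genes by mean level per kilobase of exon was Mcl1 (66.3 CPM per kilobase), Bcl2l1 (8.34), Bax (6.55), Bak1 (5.60), Bad (4.58), Bcl2l11 (2.21), Bbc3 (1.40), Bcl2 (1.28), Bid (0.491) and Pmaip1 (0.178). The libraries of neighbours overlapped from Bcl2l1 to Bad, between Bbc3 and Bcl2 and between Bid and Pmaip1, so these neighbours cannot be ranked. In TAZG197V hearts the order was Mcl1 (67.1 CPM per kilobase), Bcl2l1 (14.6), Bax (11.7), Bak1 (6.81), Bad (6.36), Bbc3 (3.07), Bcl2 (1.91), Bcl2l11 (1.34), Bid (0.702) and Pmaip1 (0.183). Here Bcl2l1 with Bax, Bak1 with Bad and Bcl2 with Bcl2l11 overlapped. Bcl2l11 thus stood above Bbc3 and Bcl2 in WT and below them in TAZG197V by mean.

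The summed level of Bax and Bak1 reached 12.2 ± 1.48 CPM per kilobase in WT hearts and 18.6 ± 2.78 in TAZG197V hearts (SD, n = 4 each), with no overlap. The summed level of the 5 BH3-only genes was 8.87 ± 0.445 in WT and 11.7 ± 1.89 in TAZG197V, with no overlap. Set against the 3 survival genes, the BH3-only sum was 0.117 ± 0.0116 in WT and 0.140 ± 0.0248 in TAZG197V, where the libraries overlapped. The BH3-only sum depends on the genes taken. With the other tested BH3-only genes Bmf, Bik and Hrk added, it was 14.2 ± 0.817 CPM per kilobase in WT hearts (13.5 to 15.4) and 15.2 ± 1.58 in TAZG197V hearts (13.7 to 17.4), and the libraries overlapped. This wider sum was chosen after the data were seen, and none of these sums was tested.

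**Figure D3:**
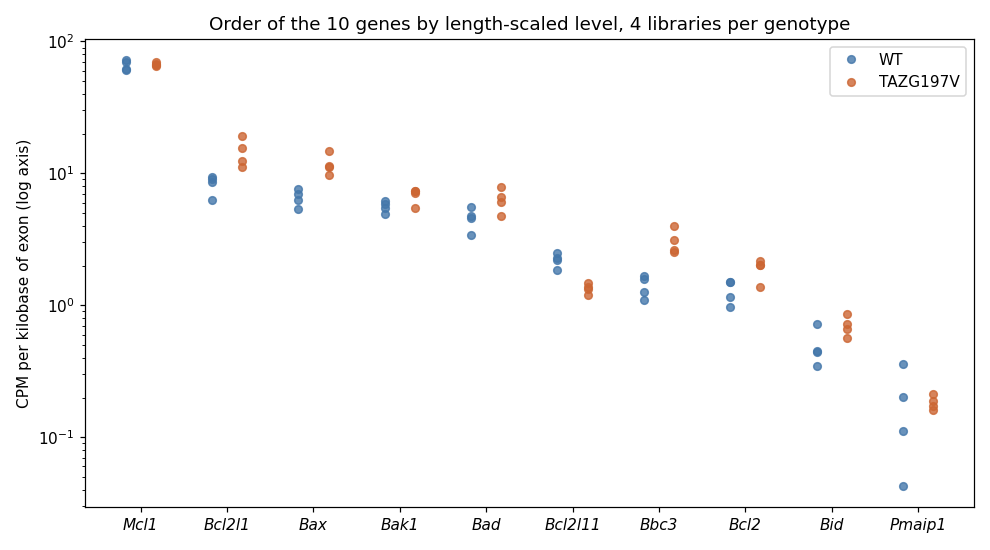
Level of the 10 genes per kilobase of exon (CPM per kilobase, log axis) in each of 4 WT (blue) and 4 TAZG197V (orange) libraries, ordered by the WT mean. Mcl1 lies well above the others at 66.3 and 67.1 CPM per kilobase, and Bcl2l11 and Bbc3 exchange places between the genotypes.

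Further Bcl-2 family genes were read beside the 10. Of 15 listed, 9 were tested, 0 were called higher and 2 were called lower by edgeR, and 4 of the 9 had an unadjusted p under 0.05. With 9 genes these counts lie near the shares over all genes tested (18.5% higher and 15.1% lower), and a difference from the 10 genes was not tested. Their median log2 fold change was -0.10. DESeq2 also called 0 higher and 2 lower.

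Both genes that fell are BH3-only genes. Bmf, known for its release from the cytoskeleton on loss of attachment, was at 6.66, 6.20, 6.75 and 7.97 CPM in WT 1 to 4. It was at 4.54, 4.50, 5.03 and 4.57 CPM in TAZG197V 1 to 4 (log2 fold change -0.59, SE 0.105, adjusted p = 0.003). Bik, which acts mainly from the endoplasmic reticulum, was at 5.21, 5.11, 5.70 and 8.15 CPM in WT 1 to 4 and at 3.19, 3.61, 3.93 and 3.36 CPM in TAZG197V 1 to 4 (log2 fold change -0.81, SE 0.144, adjusted p = 0.00311). Neither gene overlapped between genotypes. With Bcl2l11, 3 tested BH3-only genes were thus called lower, Bbc3 and Bad were called higher, and Bid, Pmaip1 and Hrk were not called. Over all genes tested 18.5% were called higher and 15.1% lower, and these counts were not tested against them. Bik was highest in WT 4, and its value was -0.58 without that library (adjusted p = 0.00804).

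The survival gene Bcl2l2, which encodes Bcl-w, had a log2 fold change of 0.00 (95% interval -0.14 to 0.14, adjusted p = 0.991) with means of 60.7 ± 4.93 CPM in WT hearts and 59.8 ± 2.45 CPM in TAZG197V hearts (SD, n = 4 each). Bok, a pore former of its own kind, was at -0.10 (adjusted p = 0.643), and Bcl2l12 was at -0.20 (adjusted p = 0.287). Bnip3, a mitophagy receptor with a BH3-like region, was at 0.13 (adjusted p = 0.478). Bcl2l13, also a mitophagy receptor, was at 0.12 (adjusted p = 0.103) and would be called higher without WT 4 (0.22, adjusted p = 0.0296) or without TAZG197V 4 (0.25, adjusted p = 0.027). Bcl2a1a, Bcl2a1b, Bcl2a1d, Bcl2l14 and Bcl2l15 had at most 5 counts in any library, and Bcl2l10 had 0 counts in all 8. The Bcl2a1 genes are near-identical copies, so their reads could be split or lost in counting. Exons of other genes cover 33.4% of the exon bases of Bcl2l12, 22.3% of those of Bnip3 and 13.3% of those of Bcl2l2.

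The values of Bnip3l and Hrk moved widely when single libraries were left out. Bnip3l, a mitophagy receptor that clears mitochondria from maturing red cells, was at 219 CPM in WT 4 and at 35.9, 38.1 and 38.6 CPM in WT 1 to 3. It was at 32.5, 34.5, 35.7 and 37.8 CPM in TAZG197V 1 to 4. Its log2 fold change was -1.0 (SE 0.374, adjusted p = 0.0646) with all libraries and -0.11 without WT 4 (adjusted p = 0.229). It would be called lower without TAZG197V 4 (-0.25, adjusted p = 0.0251) and without WT 3 (-1.22, adjusted p = 0.0322), and with all 8 libraries when no low-count filter was used (-0.42, adjusted p = 0.00286). The summed level of 6 red cell markers was 54944 CPM in WT 4, 346 to 1064 CPM in the other WT libraries and 227 to 571 CPM in the TAZG197V libraries, and 6 of 6 were called lower. None of the 6 was at 0 in all libraries. Their part in the result was not tested.

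Hrk, a BH3-only gene known from neurons, was at 1.42, 0.906, 1.01 and 2.63 CPM in WT 1 to 4. It was at 1.63, 0.701, 1.77 and 6.11 CPM in TAZG197V 1 to 4. Its value was 0.47 (SE 0.293, adjusted p = 0.232) with all libraries and 0.23 without TAZG197V 4 (adjusted p = 0.636), 0.65 without WT 4 (adjusted p = 0.162) and 0.70 without TAZG197V 2 (adjusted p = 0.0523). The summed level of 7 brain markers stood at 199.99 CPM for WT 4 and at 332 CPM for TAZG197V 4, against 46.9 to 92.7 CPM in the other libraries; 1 of the 7 was called higher and 2 lower. In those other libraries Camk2a, at 32.3 to 69.1 CPM, made up most of the sum. Snap25 was at 8.02 CPM in WT 4 and 21.7 CPM in TAZG197V 4, and at most 0.473 CPM elsewhere. Syt1 was at 10.8 and 32.8 CPM in these libraries, and at most 0.472 CPM elsewhere. The part of the brain markers in the result was not tested.

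**Figure D4:**
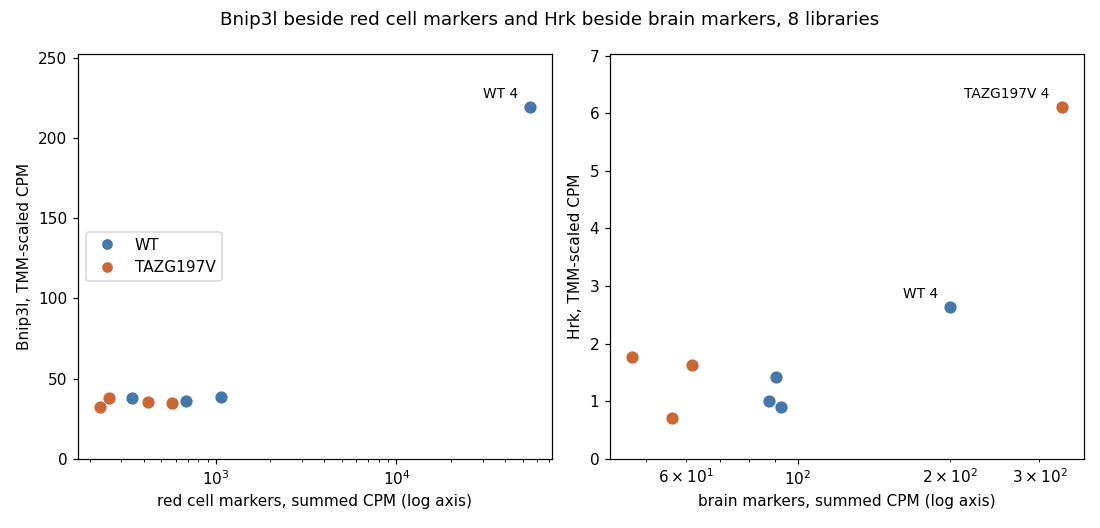
Bnip3l against the summed level of red cell markers (left) and Hrk against the summed level of brain markers (right), in TMM-scaled CPM with a log horizontal axis, 1 point per library (WT blue, TAZG197V orange). WT 4 stands alone at 219 CPM of Bnip3l and 54944 CPM of red cell markers, and TAZG197V 4 and WT 4 have the highest levels of both Hrk and brain markers.

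These libraries also touch the main set. Without both number 4 libraries, 7 of the 10 genes were called higher and 1 lower, with Bid added to the 6. Of all 15232 genes tested in that fit, 2833 were called higher and 2360 lower, and the difference was not tested. The values were then 1.27 for Bbc3, 0.84 for Bax, 0.80 for Bcl2, 0.69 for Bcl2l1, 0.48 for Bad, 0.32 for Bak1 and -0.74 for Bcl2l11 (log2 fold changes, adjusted p from 0.0015 to 0.0147). Markers of other cells moved with genotype as well. Of 6 fibroblast markers 4 were called lower (summed level 1092 to 1729 CPM in WT and 755 to 1085 CPM in TAZG197V, no overlap), and of 6 endothelial markers 2 were called lower (716 to 1000 CPM and 572 to 750 CPM, overlapping). Of 6 macrophage markers 0 were called (261 to 357 CPM and 243 to 387 CPM). Of 6 adipocyte markers 2 were tested and 1 was called lower (419 to 586 CPM and 404 to 515 CPM). Fabp4 made up most of that sum (398 to 586 CPM and 404 to 515 CPM). Adipoq, Plin1, Cidec and Cfd were highest in WT 2 (113, 143, 130 and 368 counts). WT 1 had 19, 16, 22 and 45 counts of them, TAZG197V 4 had 16, 12, 14 and 52, and the other libraries had at most 10. Lymphocyte markers reached 62.6 CPM and neutrophil markers 58.5 CPM in WT 4, and at most 5.59 and 3.57 CPM in the other libraries. The part of cell composition in the changes of the 10 genes was not tested.

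Genes downstream of the mitochondrial pore were examined next. Of 17 genes of the apoptosome and caspases, 1 was called higher and 2 were called lower, against 33.5% called in either direction over all genes tested, and the median log2 fold change was -0.11. The difference between these shares was not tested. Cycs, which encodes cytochrome c, fell from 21.4, 20.8, 25.5 and 21.1 CPM in WT to 17.9, 16.4, 16.3 and 17.3 CPM in TAZG197V (log2 fold change -0.40, SE 0.0843, adjusted p = 0.00687). Xiap, an inhibitor of caspases, fell as well (-0.27, SE 0.0557, adjusted p = 0.00669). Htra2, a mitochondrial protease that counters such inhibitors, rose (0.26, SE 0.0722, adjusted p = 0.0213), a call that was lost without WT 3 (adjusted p = 0.0514) or TAZG197V 2 (adjusted p = 0.082), with DESeq2 and within lane 7 alone. Exons of Aup1 or Loxl3 cover 43.7% of its exon bases, so its counts are uncertain. Apaf1, the scaffold of the apoptosome, was at 0.01 (95% interval -0.26 to 0.28, adjusted p = 0.966), and Aifm1 was at -0.03 (-0.15 to 0.09, adjusted p = 0.685).

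Of 14 genes of the death receptor arm, 12 were tested, 2 were called higher and 3 lower, with a median log2 fold change of -0.23. The adaptor genes Tradd (0.57, SE 0.131, adjusted p = 0.0104) and Fadd (0.28, SE 0.0829, adjusted p = 0.0268) rose. Ripk3, the kinase of necroptosis (-0.53, SE 0.149, adjusted p = 0.0234), Cflar, which restrains caspase-8 (-0.31, SE 0.0677, adjusted p = 0.0078), and the receptor gene Tnfrsf1a (-0.26, SE 0.0841, adjusted p = 0.0408) fell. Tradd and Cflar kept their calls whichever single library was left out. Fadd lost its call for 5 of the 8 libraries, Ripk3 for 4 and Tnfrsf1a for 7, at adjusted p of up to 0.124. Fadd was also not called with DESeq2, without surrogate variables, with lane as a covariate or with the replicate block. Tnfrsf1a was not called with lane as a covariate or the replicate block, and Ripk3 was not called with DESeq2. Over all genes tested 18.5% were called higher and 15.1% lower, and these counts were not tested against them. Mlkl was at 0.00 (95% interval -0.42 to 0.41) and the receptor Fas at 0.07 (-0.17 to 0.31).

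Among the upstream regulators listed, Trib3, Atf5, Atf4 and Ddit3, genes of the integrated stress response, rose most. Atf3 of the same response was called higher too (log2 fold change 1.47, SE 0.126, adjusted p = 8.99e-05), but its libraries overlapped between genotypes. Of 23 listed regulators, 22 were tested, 8 were called higher and 2 lower, with a median log2 fold change of 0.19, while 18.5% and 15.1% were so called over all genes tested. The difference between these shares was not tested. Trib3, a pseudokinase that binds Akt, was at 3.41, 3.68, 3.61 and 2.05 CPM in WT 1 to 4 and at 117, 119, 153 and 97.3 CPM in TAZG197V 1 to 4 (log2 fold change 5.31, SE 0.135, adjusted p = 2.8e-07). Atf5 (3.53, SE 0.109, adjusted p = 4.59e-07), Atf4 (2.50, SE 0.0548, adjusted p = 1.54e-07) and Ddit3, which encodes Chop (2.36, SE 0.0757, adjusted p = 4.85e-07), rose without overlap between genotypes. Chop is known to repress Bcl2 and to induce Bcl2l11 and Bbc3 in stressed cells. Fbxw7, a ubiquitin ligase that targets Mcl1, fell (-0.54, SE 0.0695, adjusted p = 0.000662), as did the kinase gene Mapk9 (-0.23, SE 0.0544, adjusted p = 0.0109), whose call was lost without WT 4. The kinase gene Mapk8 (-0.03, adjusted p = 0.74) and Huwe1, another ligase of Mcl1 (-0.09, adjusted p = 0.392), were nearest to 0. Of the forkhead genes listed, named here for the motif upstream of Bbc3 and Bcl2l11, Foxo3 rose (0.46, SE 0.0697, adjusted p = 0.00138), and Foxo1 was at -0.16 (SE 0.0755, 95% interval -0.34 to 0.01, adjusted p = 0.119).

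Known p53 targets outside the family were set beside the family's own, of which Bbc3 and Bax rose and Pmaip1 did not pass the test (0.10, adjusted p = 0.889). Fas and Apaf1, p53 targets that stand in the lists above (0.07 and 0.01), are not counted here. Nor are the p53 targets Mdm2 and Tnfrsf10b of those lists. Mdm2 was called higher without overlap (0.35, SE 0.0656, adjusted p = 0.00417), and Tnfrsf10b was not called (0.38, SE 0.172, adjusted p = 0.119). Of 12 genes, 7 were called higher and 1 lower, with a median log2 fold change of 1.00, against 18.5% and 15.1% called so over all genes tested, a difference that was not tested. Cdkn1a, the cell cycle inhibitor p21, was at 18.0, 19.7, 33.2 and 31.4 CPM in WT 1 to 4 and at 111, 117, 160 and 149 CPM in TAZG197V 1 to 4 (log2 fold change 2.34, SE 0.187, adjusted p = 6.28e-05). Trp53inp1 (1.63, SE 0.124), Gadd45a (1.43, SE 0.139) and Eda2r (1.42, SE 0.13) rose too, at adjusted p of 4.91e-05, 0.000162 and 0.000124. Ccng1, a p53 target as well, fell (-0.50, SE 0.0714, adjusted p = 0.001), and Pidd1 (0.02, adjusted p = 0.946) and Sesn1 (0.13, adjusted p = 0.341) were not called. Trp53 itself averaged 14.1 ± 1.10 CPM in WT hearts and 15.6 ± 1.88 CPM in TAZG197V hearts (SD, n = 4 each, log2 fold change 0.13, 95% interval -0.10 to 0.36, adjusted p = 0.333), although p53 is controlled mainly as a protein. Some of these targets, Gadd45a among them, also respond to other stress factors, and 19.1% of the exon bases of Gadd45a lie in exons of another gene.

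**Figure D5:**
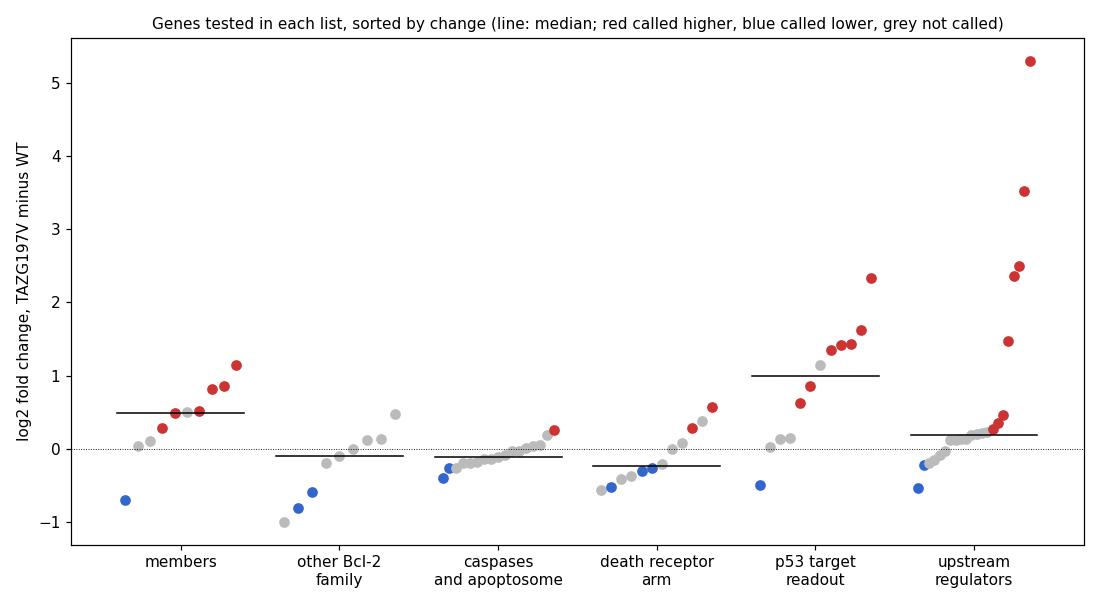
Log2 fold change of TAZG197V over WT (vertical axis) for the tested genes of the 10-gene set and of 5 further lists, sorted within each list, red where called higher, blue where called lower and grey where not called, with a line at each median. The medians are 0.49 for the 10 genes, -0.10 for the other family genes, -0.11 for caspases and apoptosome, -0.23 for the death receptor arm, 1.00 for p53 targets and 0.19 for upstream regulators.

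For Bbc3, the called gene with the largest change of the 10, the genes with the most similar level over the 8 libraries were Zfp511 (Pearson's r = 0.992), Arhgap1 (r = 0.982) and Sec11c (r = 0.982), on log2 CPM. These values describe 8 libraries that fall into the 2 genotypes, and they carry no test.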

How the data were processed

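RNA was sequenced from heart pieces of 4 WT and 4 TAZG197V mice. The authors sequenced 50-base single-end reads, demultiplexed them with bcl2fastq 2.20.0, aligned them to mm10 with STAR 2.7.3a and counted them over exons with featureCounts (Subread 2.0.0), and deposited raw whole-number counts for each Ensembl gene. Annotation release, strand setting and multi-mapping were not given in the sources used here. Rows for 92 ERCC spike-ins summed to 0 and were left out.

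In R 4.3.3, genes were kept by filterByExpr (15084) and scaled by TMM. Genotype was tested with the two-sided quasi-likelihood test of edgeR 4.0.16 with 2 surrogate variables from svaseq (sva 3.50.0, seed 1). DESeq2 1.42.0 was an alternative. On simulated counts of 14935 genes, the procedure recovered 175 of 200 changes and called 18 unchanged genes. Of the changes of 0.6 on the log2 scale, 46 of 65 were recovered, so changes of this size can be missed. Levels are TMM-scaled CPM, divided by kilobases of GENCODE M21 exon where genes are compared. Symbols and positions came from GENCODE M21, promoters from RefSeq. Total counts of 23055689 to 36301031 set the depth. For genes of few counts, counting error adds to the spread between mice. No 2 libraries of a genotype agreed within sampling noise (chi-square per gene at least 10.2). The labels number the libraries but do not state how they were taken, so p-values measure the spread between these samples, which may be technical in part.

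The 10 genes, the further lists and the markers were chosen with earlier results of these data known. Named were the 10 genes, each other family gene, per further list up to 4 called genes of largest change and 2 nearest to 0, and the 3 genes most like Bbc3. Tnfrsf1a, Tnfrsf10b, Mapk9, Fbxw7, Mdm2, Atf3, Ccng1, Foxo1, Foxo3 and Trp53 were named outside this rule, after their values were seen, as were the single marker genes.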

Additional observations from a re-analysis of the deposited data

Results flagged for a closer look

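Of 56 sets of 4 libraries checked (the levels of the named family genes and the summed markers, by genotype), 9 held a library farther from the rest than Dixon's 95% critical value for the gap over the range; chance alone gives about 2.8. Among family genes, Bmf in TAZG197V 3 (5.03 CPM) and Bnip3l in WT 4 (219 CPM) stood apart from the other libraries of their genotype. In WT 4 the summed markers of red cells (54944 CPM), lymphocytes (62.6 CPM), neutrophils (58.5 CPM) and brain (199.99 CPM) were high. In TAZG197V 4 the summed brain markers were high (332 CPM). Endothelial markers were high in WT 3 (1000.2 CPM) and fibroblast markers in WT 2 (1729 CPM). None of the 10 genes of the main set had such a library in either genotype.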

How the results depend on the processing

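In 19 of 20 alternatives, 3 to 7 of the 10 genes were called higher and 1 lower; Bcl2 was not called in 8 of the 20, and Bid was called in 5. A fold change of at least 1.5 left 3 of 6 called higher, 2 of 10 further list genes called lower and 1843 of 5060 genes called. Lane 8 alone, with 2 mice per genotype that include both number 4 libraries, called 0 of the 10 genes higher and 0 lower, 2 further list genes higher and 0 lower, and 45 genes in all, against 4455 in lane 7 alone. Leaving out 1 library gave 5 to 7 of the 10 genes called higher and 1 lower, 16 to 20 further list genes higher and 8 to 12 lower, and 3675 to 4816 genes in all. Mcl1, which was not called, changed sign with no low-count filter (-0.02), without both number 4 libraries (-0.03), in lane 7 alone (-0.09) and when 1 library was left out (-0.03 to 0.11). Pmaip1 did so when 1 library was left out (-0.28 without WT 3, up to 0.56 without WT 4) and in lane 8 alone (-0.09), and Hrk in lane 7 alone (-0.01). The cause was not tested.

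Deviations of same-numbered libraries correlated at 0.323, 0.0666, 0.28 and 0.418 for numbers 1 to 4, and 5 of 8 libraries correlated best with their own number. Pairing was accepted only if every correlation passed 0.1, which number 2 did not, so the numbers were not treated as pairs. With the replicate block, 5 of the 10 genes were called higher (Bcl2 was at an adjusted p of 0.0725), 1 was called lower, and 4272 genes were called in all. No scaling moved the median of all genes by 0.1. Pmaip1, with a mean scaled count of 14.5, was under the count minimum for a call.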
